A study of Mus musculus with 12 samples.

Results

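The genes described here are 36 genes of mitosis, read in bulk RNA-seq libraries of adult mouse neural stem cells (NSCs) grown from the dentate gyrus (DG). They were taken as a fixed list of names covering mitotic entry, the spindle, the kinetochore, cytokinesis and the nuclear lamina. The list was chosen with earlier results of these data known. All 36 were found, each once, among the 50600 gene entries of the deposited table. The NSCs were wild type, from C57Bl6J mice, and were cultured with epidermal growth factor and basic fibroblast growth factor. At passage 4 they were given either 1 µM TFB-TBOA, which blocks the transporters (EAATs) that carry glutamate into cells, or its vehicle, and 15 min later 100 µM glutamate or its vehicle. RNA was collected after 48 h from 3 wells in each of 4 groups, named by inhibitor and then by glutamate. Veh-Veh and Veh-Glut had no inhibitor, and TFBTBOA-Veh and TFBTBOA-Glut had it. The study asked whether glutamate taken up through these transporters drives NSC self-renewal, so the comparisons are glutamate against vehicle without and with the inhibitor, and inhibitor against vehicle without and with glutamate.

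A cell that enters mitosis switches on cyclin-dependent kinase 1 with its B-type cyclins, condenses its chromosomes, takes down the nuclear envelope and builds a spindle of microtubules. Kinetochores tie the chromosomes to the spindle, and the spindle checkpoint holds back the anaphase-promoting complex until every chromosome is attached. The complex then marks cyclin B and securin for destruction, the chromatids part, and cytokinesis divides the cell. Transcripts of these genes build up in G2 and mitosis and are low in resting cells, so that their level in a bulk lysate follows the share of dividing cells as well as the RNA in each. Fewer dividing cells and less mitotic RNA per dividing cell cannot be told apart in these libraries.

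The libraries carried markers of cultured NSCs, with mean normalized counts of 27277 for Nes, 25201 for Fabp7, 30991 for Slc1a3 and 4581 for Sox9, while Gfap (39.6), Hes5 (19.7) and Prom1 (7.76) were low. Sox2 (189), Hes1 (221), Id1 (187) and Hopx (101) lay between these levels. Of the 16 NSC markers, 15 had a mean of at least 10. Of the marker lists of other cell types, 8 of 12 neuron genes, 6 of 8 mature astrocyte genes, 6 of 10 oligodendrocyte lineage genes, 1 of 7 microglial genes and 3 of 6 endothelial genes had a mean of at least 10. The neuron list held Map2 at 11594 and Prox1 at 397, with Dcx (5.15) and Stmn2 (0.526) low. The astrocyte list held Aldoc at 6084 and Aldh1l1 at 3267, with Aqp4 at 1.74 and Gjb6 listed at 0 in all 12 libraries. The oligodendrocyte lineage list held Cnp at 2116, Cspg4 at 1733 and Olig2 at 1451.5, with Mbp at 5.75. Microglial Cx3cr1 was listed at 0 in all libraries and endothelial Cldn5 averaged 0.08. The methods describe a male and a female NSC line, each pooled from several mice. Ddx3y, Kdm5d, Eif2s3y and Uty of the Y chromosome were listed at 0 in every library and Xist averaged 443 normalized counts, which matches the female line only. The 3 wells of a group are therefore wells of a pooled line and not separate animals, and p-values measure the spread between wells. Whole reads could be recovered in 10 libraries and came to between 13064545 and 18372691 per library.

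The 36 members were abundant. Their lowest value in any library was 536 normalized counts and their highest 9736, so each passed the filter of a mean of at least 10 that left 14266 genes for testing. Per kilobase of exon, which allows levels of different genes to be compared, Cdc20 was the most abundant with a mean over the 12 libraries of 2929 normalized counts per kb, followed by Plk1 (1707) and Ccnb1 (1684). The least abundant was Kif15 with 74.4 per kb. Together the members took 0.684% ± 0.00948 (SD, n = 3) of all normalized counts in Veh-Veh and 0.727% ± 0.00963 in Veh-Glut. The share was 0.583% ± 0.0225 in TFBTBOA-Veh and 0.605% ± 0.00567 in TFBTBOA-Glut. The highest library with the inhibitor, at 0.61%, lay below the lowest library without it, at 0.677%.

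**Figure D1:**
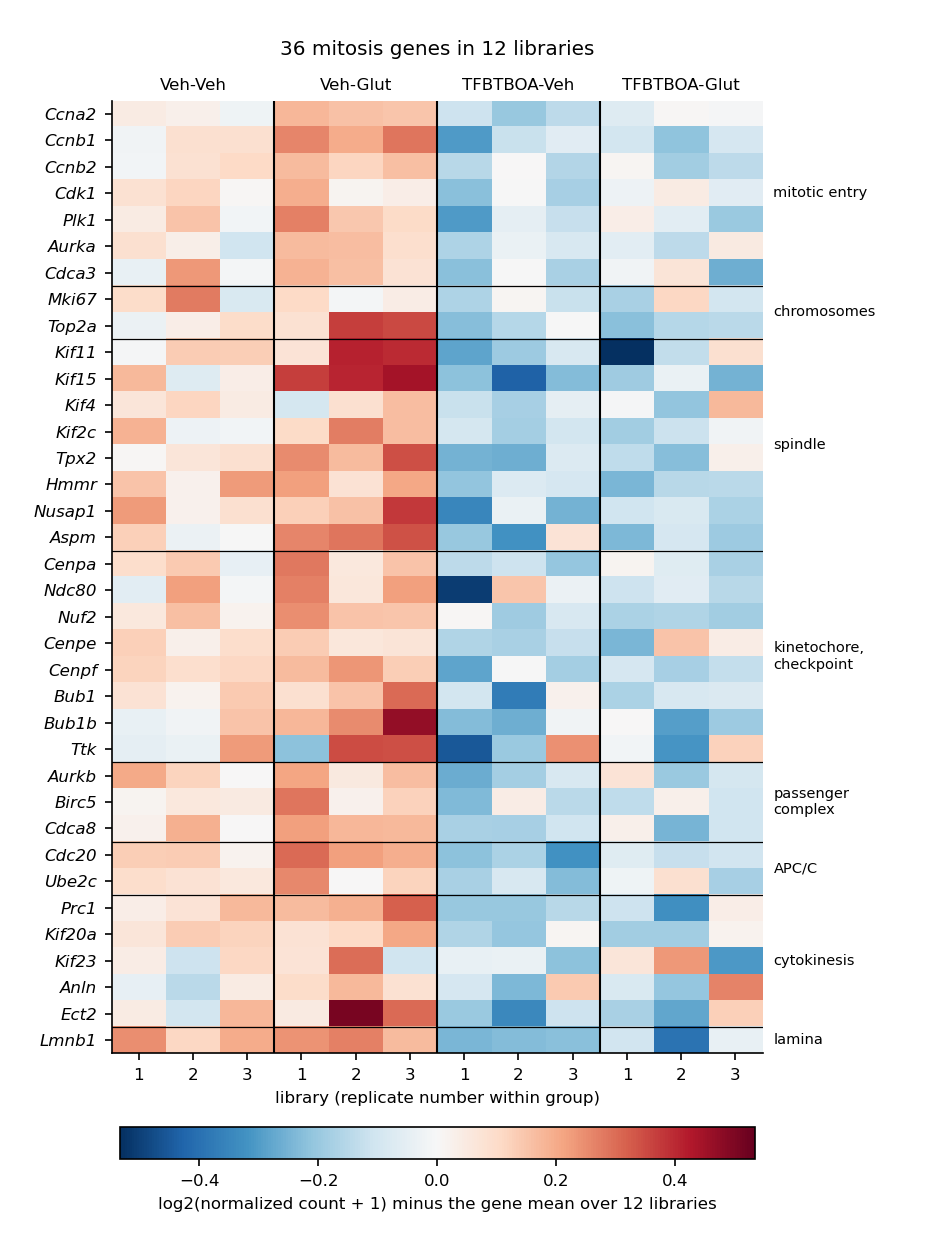
Each row is a member and each column a library, with the groups separated by vertical lines and the roles by horizontal lines. The colour gives log2(normalized count + 1) minus the mean of that gene over the 12 libraries, red for above and blue for below. Between 34 and 35 of the 36 members were above their own mean in each Veh-Glut library, 27 to 28 in each Veh-Veh library, 1 to 5 in each TFBTBOA-Veh library and 7 to 10 in each TFBTBOA-Glut library.

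What the members share in sequence was read from the RefSeq promoter windows of GRCm38.p6, which run from 250 bases before to 50 bases after a transcription start. A window was found for 31 of the 36 members, and Ccna2, Tpx2, Aurkb, Kif20a and Lmnb1 had none. Genes of this kind are known to be driven in G2 and mitosis through the cell cycle genes homology region and through CCAAT boxes. The MuvB core complex binds the first, joined by its partners B-MYB and FOXM1, and NF-Y binds the second. The letters TTTGAA, searched on both strands, stood in the window of 25 members (80.6%), against 14.1% of the 9955 tested genes with a window and 20.2% of all 27025 genes in the table. The variant TTTAAA, which reads the same on both strands, stood in 10 members (32.3%) and in 11.1% of tested genes. CCAAT on either strand stood in 24 members (77.4%) and in 43.6% of tested genes, and 18 members (58.1%) held 2 or more copies, against 17.1%. Either hexamer together with CCAAT was found in 23 members (74.2%) and in 11% of tested genes. Nusap1 and Nuf2 held none of these letters. These are matches of letters in a window and were not tested for binding.

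The windows of the 6 members that fell with TFB-TBOA in the presence of glutamate are shown, because the calls with glutamate rest on them and they show how the motifs are placed. They lie at chr13:100786437-100786736 (minus strand) for Ccnb1, chr4:118437294-118437593 (minus) for Cdc20, chr11:99024140-99024439 (minus) for Top2a, chr9:122950831-122951130 (plus) for Kif15, chr1:139454523-139454822 (plus) for Aspm and chr2:118597961-118598260 (plus) for Bub1b. Each is printed 5′ to 3′ along the gene, and the capitals mark either hexamer or CCAAT, on either strand.
Ccnb1: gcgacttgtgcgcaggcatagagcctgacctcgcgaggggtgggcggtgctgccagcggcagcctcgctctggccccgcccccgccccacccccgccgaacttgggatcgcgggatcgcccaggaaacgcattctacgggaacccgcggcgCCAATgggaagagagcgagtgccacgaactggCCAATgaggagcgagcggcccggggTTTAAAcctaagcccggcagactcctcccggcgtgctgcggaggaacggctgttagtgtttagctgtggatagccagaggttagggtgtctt
Cdc20: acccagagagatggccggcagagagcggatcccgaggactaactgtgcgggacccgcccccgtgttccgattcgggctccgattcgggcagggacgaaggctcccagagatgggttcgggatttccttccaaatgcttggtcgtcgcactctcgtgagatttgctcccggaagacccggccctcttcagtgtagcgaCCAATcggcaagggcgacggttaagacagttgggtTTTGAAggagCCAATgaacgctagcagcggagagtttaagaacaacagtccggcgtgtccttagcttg
Top2a: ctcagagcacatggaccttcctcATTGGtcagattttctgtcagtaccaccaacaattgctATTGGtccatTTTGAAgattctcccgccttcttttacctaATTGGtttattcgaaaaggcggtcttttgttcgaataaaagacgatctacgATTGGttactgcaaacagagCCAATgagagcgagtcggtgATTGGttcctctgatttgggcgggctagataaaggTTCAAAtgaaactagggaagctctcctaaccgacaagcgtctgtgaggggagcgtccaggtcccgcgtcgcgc
Kif15: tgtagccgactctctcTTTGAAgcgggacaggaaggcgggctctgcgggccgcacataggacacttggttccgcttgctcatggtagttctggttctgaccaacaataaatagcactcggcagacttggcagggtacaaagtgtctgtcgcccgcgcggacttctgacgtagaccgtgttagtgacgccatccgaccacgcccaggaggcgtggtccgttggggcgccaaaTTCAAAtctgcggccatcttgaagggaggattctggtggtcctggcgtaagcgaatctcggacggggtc
Aspm: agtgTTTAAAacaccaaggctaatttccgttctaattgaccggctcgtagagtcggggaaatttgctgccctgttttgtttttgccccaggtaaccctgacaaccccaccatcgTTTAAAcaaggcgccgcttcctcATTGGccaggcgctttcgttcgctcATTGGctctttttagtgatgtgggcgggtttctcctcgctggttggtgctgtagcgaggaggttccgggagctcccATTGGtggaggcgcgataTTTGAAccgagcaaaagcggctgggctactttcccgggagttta
Bub1b: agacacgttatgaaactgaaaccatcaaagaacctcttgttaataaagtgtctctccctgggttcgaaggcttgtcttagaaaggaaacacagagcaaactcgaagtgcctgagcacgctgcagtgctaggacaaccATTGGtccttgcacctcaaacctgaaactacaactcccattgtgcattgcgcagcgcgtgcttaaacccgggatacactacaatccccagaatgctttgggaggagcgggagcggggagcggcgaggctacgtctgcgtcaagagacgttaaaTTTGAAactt
In Ccnb1 a pair of CCAAT boxes begins at positions -99 and -67, followed by TTTAAA at -42, counting the first transcribed base as 1. In Cdc20 TTTGAA at -18 stands between CCAAT boxes at -53 and -8. Top2a held 6 CCAAT copies and 2 of TTTGAA on the 2 strands together, the nearest TTTGAA at -23. In Aspm TTTGAA began at 7 and TTTAAA at -246 and -136, with 3 CCAAT copies. In Bub1b TTTGAA began at 41, with a CCAAT copy at -113. Kif15 held 2 copies of TTTGAA, at -234 and -19, with no CCAAT in the window.

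Mitosis genes were lower with TFB-TBOA. Every one of the 36 members had a lower mean with the inhibitor than without it, both in the absence and in the presence of glutamate, in comparisons that share no library. The median log2 difference of the members was -0.21 without glutamate and -0.29 with it, against medians of 0.00 and 0.01 over all genes tested. Of all genes tested, 29.8% were lower in both comparisons. Without glutamate, 2 members passed the threshold of an adjusted p of 0.05 (limma, over all genes), Lmnb1 and Cdc20, both lower, beside 0.105% of all genes tested. With glutamate, 6 members passed it, Ccnb1, Cdc20, Top2a, Kif15, Aspm and Bub1b, all lower, beside 0.953% of all genes. Only Cdc20 passed in both comparisons.

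Differences were small and regular across the list. They ran from -0.42 to -0.02 on the log2 scale without glutamate and from -0.56 to -0.07 with it. All 3 TFBTBOA-Veh libraries were below all 3 Veh-Veh libraries for 23 members (63.9%), against 7.74% of all genes tested. All 3 TFBTBOA-Glut libraries were below all 3 Veh-Glut libraries for 24 members (66.7%), against 12% of all genes. For 16 members both held, against 2.73% of all genes. Averaged over both glutamate conditions in a fit of all 12 libraries, a contrast added after the data were seen, 25 of the 36 members passed the threshold, all lower, beside 3.4% of all genes tested. Leaving out any of the 12 libraries in turn left between 15 (without TFBTBOA-Veh replicate 1) and 22 of these 25.

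**Figure D2:**
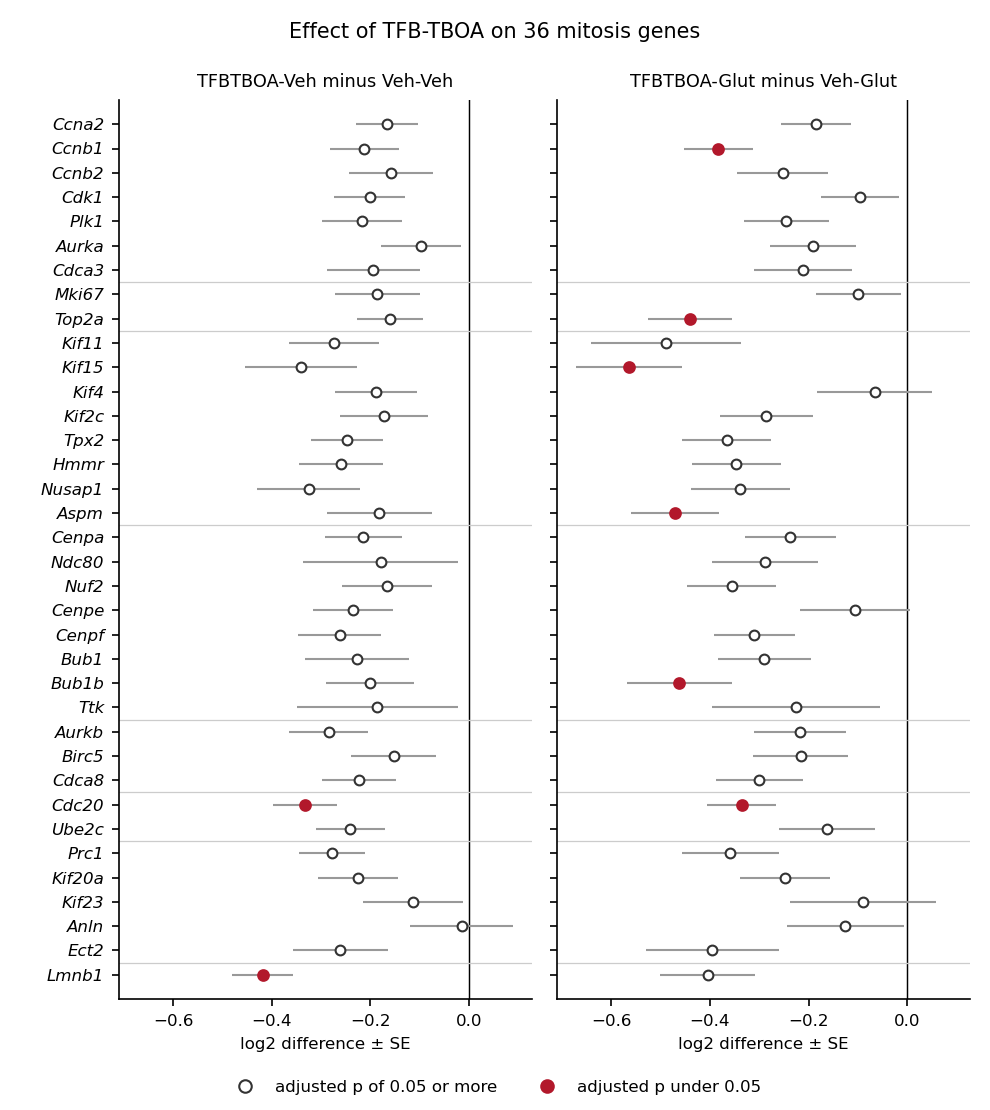
Points give the log2 difference of each member between groups with and without TFB-TBOA, in the absence (left) and presence (right) of glutamate, and bars give the standard error from limma (3 libraries per group). Every point lies left of 0, and filled points mark the 2 and 6 members with an adjusted p under 0.05.

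The counts of calls depend on single wells. Without Veh-Veh replicate 1 or without TFBTBOA-Veh replicate 1 no member passed in the comparison without glutamate, and without Veh-Veh replicate 2 or TFBTBOA-Veh replicate 2 or 3 only Lmnb1 did. With glutamate, 0 passed without Veh-Glut replicate 2, Veh-Glut replicate 3 or TFBTBOA-Glut replicate 1. Dropping TFBTBOA-Glut replicate 2 left 3 (Aspm, Ccnb1 and Kif15), and dropping replicate 3 of that group gave 8. Without the filter on low values no member passed in either comparison. The direction was kept, with at least 35 of the 36 members lower in each of these fits. In the comparison with glutamate the summed level of 16 NSC markers also differed, at 110271 to 114562 in Veh-Glut and 120085 to 126488 in TFBTBOA-Glut, and so did that of 10 oligodendrocyte lineage genes (4487 to 5213 against 5347 to 6552), with Mbp near 0, and that of 8 mural and fibroblast genes (1451 to 1794 against 1816 to 2079). Cspg4, with a mean of 1733, is on both the oligodendrocyte lineage list and the mural and fibroblast list. The next highest mural or fibroblast gene, Acta2, averaged 30.4, so that sum mostly repeats Cspg4. The NSC sum is mostly Nes, Fabp7, Slc1a3 and Vim, and Vim alone ranged from 17658 to 31240 over the 12 libraries. That sum therefore does not show that the 16 NSC markers differed in general. The part of these sums in the result was not tested. Without glutamate the NSC marker sums overlapped, at 118065 to 121783 in Veh-Veh and 118581 to 123903 in TFBTBOA-Veh.

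Cdc20 (ENSMUSG00000006398.15, chr4:118432901-118437352, GRCm38), the activator of the anaphase-promoting complex, was the member that passed in both comparisons. Its normalized counts were 5939, 5965 and 5498 in Veh-Veh and 6696, 6313 and 6202 in Veh-Glut. They were 4661, 4826 and 4335 in TFBTBOA-Veh and 5182, 4985 and 5052 in TFBTBOA-Glut. The 4 groups did not overlap, with Veh-Glut highest and TFBTBOA-Veh lowest. With the inhibitor Cdc20 fell by 20.6% without glutamate (log2 difference -0.33 ± 0.065 SE, adjusted p = 0.0358) and it fell by 20.7% with glutamate (-0.34 ± 0.07, adjusted p = 0.0324). Elovl1 lies on the opposite strand over part of Cdc20, and reads of the 2 genes cannot be told apart there, since the library kit keeps no strand.

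Lmnb1 (ENSMUSG00000024590.8, chr18:56707813-56753424), lamin B1 of the nuclear lamina, which proliferating cells hold at a high level, had the largest fall without glutamate. Its counts were 5575, 5074 and 5399 in Veh-Veh and 3966, 4008 and 4027 in TFBTBOA-Veh, and it fell by 25.2% (log2 difference -0.42 ± 0.062, adjusted p = 0.00891). With glutamate they were 5549.5, 5666 and 5280.3 in Veh-Glut and 4376, 3578 and 4569 in TFBTBOA-Glut. All inhibitor libraries lay below all others, and the comparison with glutamate had a log2 difference of -0.40 ± 0.096 and an adjusted p of 0.0538.

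Ccnb1 (ENSMUSG00000041431.16, chr13:100778650-100786570), cyclin B1, the partner of cyclin-dependent kinase 1 at mitotic entry, had counts of 8434, 8088 and 8583 in Veh-Glut and 6575, 6068 and 6614 in TFBTBOA-Glut. It fell by 23.3% (log2 difference -0.38 ± 0.07, adjusted p = 0.0187). Without glutamate the counts were 6962, 7475.8 and 7469.1 in Veh-Veh and 5706, 6486 and 6752 in TFBTBOA-Veh. These groups did not overlap either, with a log2 difference of -0.21 ± 0.07 that missed the threshold (adjusted p = 0.237).

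Top2a (ENSMUSG00000020914.17, chr11:98992943-99024189), topoisomerase IIα, which untangles sister chromatids, had counts of 7972, 9736 and 9626 in Veh-Glut and 6454, 6785 and 6817 in TFBTBOA-Glut. It fell by 26.3% (log2 difference -0.44 ± 0.085, adjusted p = 0.0237). In Veh-Veh it had 7369.9, 7722 and 8059 and in TFBTBOA-Veh 6436, 6775 and 7537, where the highest inhibitor library lay within the Veh-Veh range and the log2 difference was -0.16 ± 0.067 (adjusted p = 0.383). A short gene model, Gm26394, overlaps it on the opposite strand.

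Kif15 (ENSMUSG00000036768.6, chr9:122951046-123018733), a spindle kinesin that works beside Kif11, had the largest change in the presence of glutamate, where it fell by 32.4% (log2 difference -0.56 ± 0.11, adjusted p = 0.0218). Its counts were 1039, 1067 and 1097 in Veh-Glut and 707, 786 and 676 in TFBTBOA-Glut. In Veh-Veh they were 909, 767 and 824 and in TFBTBOA-Veh 692, 596 and 685. Each inhibitor group lay below its own control group, with a log2 difference of -0.34 ± 0.11 without glutamate (adjusted p = 0.249).

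Aspm (ENSMUSG00000033952.14, chr1:139454772-139494091), a spindle pole protein whose loss causes microcephaly in humans, had 1910.1, 1939 and 2014 in Veh-Glut and 1348, 1494 and 1390.5 in TFBTBOA-Glut and fell by 27.8% (log2 difference -0.47 ± 0.09, adjusted p = 0.0218). The Veh-Veh libraries held 1737, 1556 and 1592 and the TFBTBOA-Veh libraries 1384, 1273 and 1672. These last 2 groups overlapped, and their log2 difference was -0.18 ± 0.11 (adjusted p = 0.568).

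Bub1b (ENSMUSG00000040084.9, chr2:118598211-118641591), the checkpoint protein BubR1 that restrains Cdc20, had 2804, 2949 and 3431 in Veh-Glut and 2482, 2018 and 2166 in TFBTBOA-Glut and fell by 27.4% (log2 difference -0.46 ± 0.11, adjusted p = 0.0489). Its adjusted p was the highest of the 6. In Veh-Veh it had 2408, 2444 and 2755 and in TFBTBOA-Veh 2108, 2068 and 2446, with TFBTBOA-Veh replicate 3 inside the Veh-Veh range and a log2 difference of -0.20 ± 0.089 (adjusted p = 0.419).

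**Figure D3:**
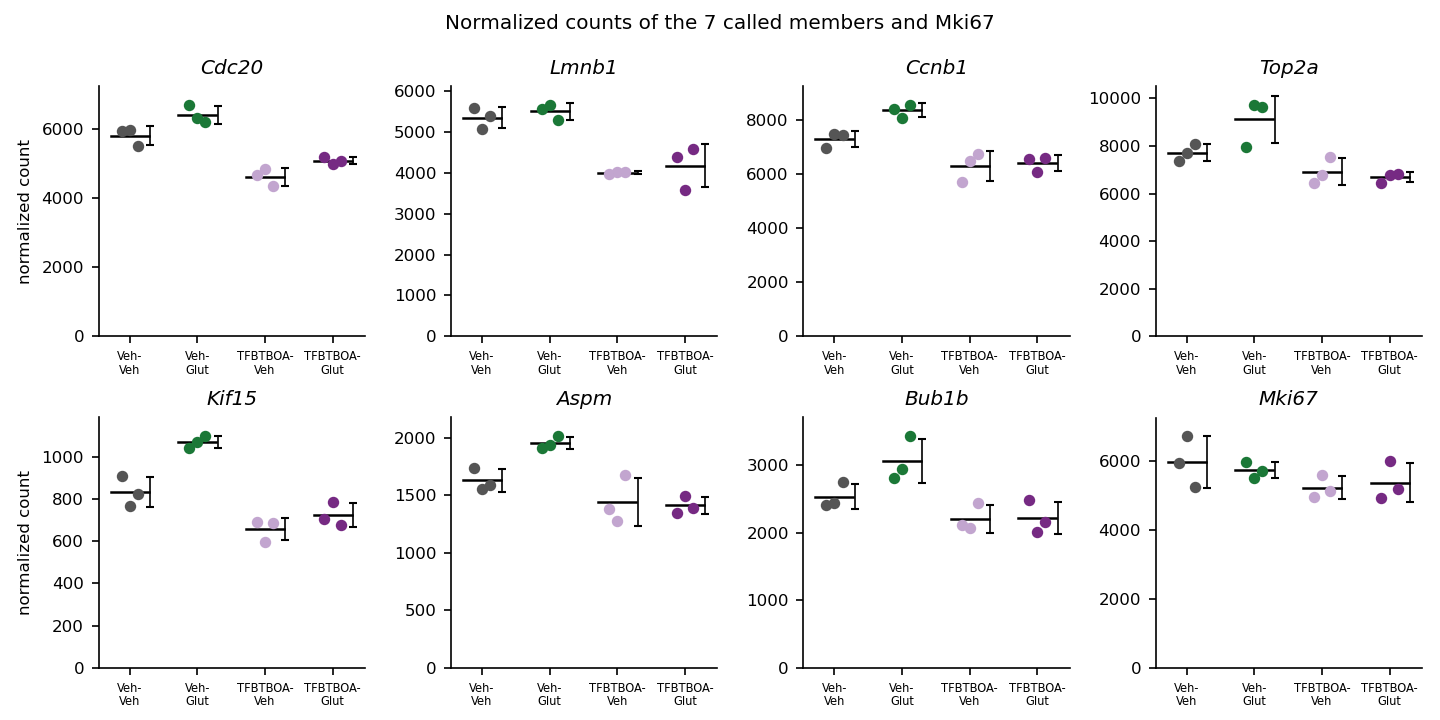
Points are the normalized counts of single libraries in the 4 groups, horizontal lines the group means and bars the SD (n = 3), with each axis starting at 0. The 7 members that passed the threshold in an inhibitor comparison have lower means in both inhibitor groups, though the groups of Top2a, Aspm and Bub1b overlap without glutamate. The means of Mki67 are lower too, with groups that overlap in both inhibitor comparisons.

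Among the 7 genes of mitotic entry, levels were 996 for Ccna2, 1684 for Ccnb1, 1097 for Ccnb2, 871 for Cdk1, 1707 for Plk1, 872 for Aurka and 816 for Cdca3 normalized counts per kb. Ccna2 (cyclin A2) and the B-type cyclins Ccnb1 and Ccnb2 activate the kinase Cdk1, Plk1 and Aurka are kinases that promote entry and spindle assembly, and Cdca3 is a mitotic entry factor. With TFB-TBOA alone the log2 differences were -0.17 for Ccna2, -0.21 for Ccnb1, -0.16 for Ccnb2, -0.20 for Cdk1, -0.22 for Plk1, -0.10 for Aurka and -0.19 for Cdca3. None of these passed, and the groups were apart for 4 of the 7. In the presence of glutamate the inhibitor differences were -0.18 for Ccna2, -0.38 for Ccnb1, -0.25 for Ccnb2, -0.10 for Cdk1, -0.24 for Plk1, -0.19 for Aurka and -0.21 for Cdca3. Ccnb1 passed, and all but Cdk1 had groups that did not overlap. Plk1, the second most abundant member per kb, had counts of 3842, 4144 and 3694 in Veh-Veh and 3024, 3614 and 3426 in TFBTBOA-Veh, and of 4492, 4128 and 4008 in Veh-Glut and 3821, 3591 and 3254 in TFBTBOA-Glut. The counts of Cdk1 were 4529, 4639 and 4308 in Veh-Veh and 3675, 4277 and 3784 in TFBTBOA-Veh. They were 4899, 4331 and 4391 in Veh-Glut and 4206, 4423 and 4104 in TFBTBOA-Glut. Its inhibitor libraries lay below Veh-Veh without glutamate but overlapped Veh-Glut with it.

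Of the chromosome genes Mki67, which encodes the Ki-67 protein that coats mitotic chromosomes and is the usual histological marker of proliferation, stood at 554 per kb and Top2a at 844. The Mki67 counts were 5943, 6722 and 5241 in Veh-Veh, 5975, 5518 and 5712 in Veh-Glut, 4958, 5600.0 and 5117 in TFBTBOA-Veh and 4927, 5997 and 5183 in TFBTBOA-Glut, and every pair of groups compared overlapped. The inhibitor difference of Mki67 was -0.19 ± 0.086 without and -0.10 ± 0.086 with glutamate, and its adjusted p was 0.444 and 0.575.

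The 8 spindle genes had a median inhibitor difference of -0.25 without and -0.36 with glutamate, against -0.21 and -0.29 for all 36 members. Levels were 198 for Kif11, 74.4 for Kif15, 281 for Kif4, 379 for Kif2c, 776 for Tpx2, 334 for Hmmr, 348 for Nusap1 and 139 for Aspm per kb. Kif11 is the kinesin that pushes the spindle poles apart, Kif4 a chromosome-bound kinesin, Kif2c a kinesin that shortens microtubules, and Tpx2, Hmmr and Nusap1 bind and organise spindle microtubules. Differences with TFB-TBOA alone were -0.27 for Kif11, -0.34 for Kif15, -0.19 for Kif4, -0.17 for Kif2c, -0.25 for Tpx2, -0.26 for Hmmr, -0.33 for Nusap1 and -0.18 for Aspm. The groups were apart for 7 of the 8, all but Aspm. With glutamate present they were -0.49 for Kif11, -0.56 for Kif15, -0.07 for Kif4, -0.29 for Kif2c, -0.37 for Tpx2, -0.35 for Hmmr, -0.34 for Nusap1 and -0.47 for Aspm. In the averaged contrast 7 of the 8 passed, all but Kif4. Kif11 had 1535, 1939.8 and 1921 in Veh-Glut and 1006, 1329.7 and 1545 in TFBTBOA-Glut, and these groups overlapped. In Veh-Veh it had 1451, 1603 and 1595 and in TFBTBOA-Veh 1199, 1275 and 1372. Hmmr had 2002, 1832 and 2110.4 in Veh-Veh, 2097, 1899.7 and 2079 in Veh-Glut, 1558, 1712 and 1691 in TFBTBOA-Veh and 1519, 1627 and 1629.6 in TFBTBOA-Glut. Hmmr was lower in all inhibitor libraries than in any other, which was not so for Kif4. Kif4 had 1612, 1668 and 1589 in Veh-Veh and 1418, 1365 and 1492 in TFBTBOA-Veh, groups that were apart. It had 1446, 1634 and 1730.1 in Veh-Glut and 1536, 1332 and 1740.1 in TFBTBOA-Glut, groups that overlapped.

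The kinetochore and checkpoint genes stood at 428 for Cenpa, 129 for Ndc80, 224 for Nuf2, 183 for Cenpe, 151 for Cenpf, 375 for Bub1, 586 for Bub1b and 152 for Ttk per kb. Cenpa is the histone variant that marks centromeres, Ndc80 and Nuf2 form the complex that grips microtubules, Cenpe is a kinetochore kinesin, Cenpf a kinetochore protein, and Bub1, Bub1b and Ttk are checkpoint components. TFB-TBOA alone gave -0.21 for Cenpa, -0.18 for Ndc80, -0.17 for Nuf2, -0.24 for Cenpe, -0.26 for Cenpf, -0.23 for Bub1, -0.20 for Bub1b and -0.19 for Ttk, and 4 of the 8 had groups apart. With glutamate it gave -0.24 for Cenpa, -0.29 for Ndc80, -0.36 for Nuf2, -0.11 for Cenpe, -0.31 for Cenpf, -0.29 for Bub1, -0.46 for Bub1b and -0.23 for Ttk, and 6 had groups apart. Both sets of groups were apart for Cenpa, Nuf2 and Cenpf. Nuf2 had 1676, 1567 and 1562 in Veh-Glut and 1252, 1259.7 and 1239.7 in TFBTBOA-Glut, beside 1465, 1576 and 1426 in Veh-Veh and 1418, 1237 and 1329 in TFBTBOA-Veh. Ttk ranged from 536 to 869 within TFBTBOA-Veh alone. Cenpe had 1719, 1599 and 1676 in Veh-Veh and 1405, 1392 and 1441 in TFBTBOA-Veh, and 1725, 1640.4 and 1649 in Veh-Glut and 1326, 1748 and 1613 in TFBTBOA-Glut. For Cenpe only the groups without glutamate were apart. In the averaged contrast Cenpa, Nuf2, Cenpf, Bub1 and Bub1b passed, and Ndc80, Cenpe and Ttk did not. Over the 12 fits that each left out a library, Cenpa stayed past the threshold in 5 and Bub1 in 4. Nuf2, Cenpf and Bub1b did so in all 12.

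The chromosomal passenger complex corrects faulty attachments and guides cytokinesis. Its kinase Aurkb, survivin (Birc5) and borealin (Cdca8) stood at 979 for Aurkb, 599.6 for Birc5 and 576 for Cdca8 per kb. The inhibitor differences were -0.28 for Aurkb, -0.15 for Birc5 and -0.22 for Cdca8 without glutamate. They were -0.22 for Aurkb, -0.22 for Birc5 and -0.30 for Cdca8 with it. Aurkb and Cdca8 passed in the averaged contrast and Birc5 did not. Ube2c, the ubiquitin-conjugating enzyme of the anaphase-promoting complex, stood at 1152 per kb beside Cdc20, with differences of -0.24 without and -0.16 with glutamate.

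In cytokinesis the members split into those that passed in the averaged contrast and those that did not. Prc1 bundles the microtubules of the spindle midzone, Kif20a and Kif23 are midzone kinesins, Anln (anillin) scaffolds the contractile ring, and Ect2 activates RhoA there. Levels were 457 for Prc1, 536 for Kif20a, 143 for Kif23, 186 for Anln and 342 for Ect2 per kb. Without glutamate the inhibitor differences were -0.28 for Prc1, -0.23 for Kif20a, -0.11 for Kif23, -0.02 for Anln and -0.26 for Ect2. With glutamate they were -0.36 for Prc1, -0.25 for Kif20a, -0.09 for Kif23, -0.13 for Anln and -0.39 for Ect2. Prc1, Kif20a and Ect2 passed in the averaged contrast, with log2 differences of -0.32 ± 0.059, -0.24 ± 0.059 and -0.33 ± 0.089. Anln and Kif23 had the smallest averaged differences of the 36, at -0.07 ± 0.083 and -0.10 ± 0.095. Lmnb1, which stood at 1606 per kb, had differences of -0.42 and -0.40.

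In the contrast averaged over glutamate, which is given with the caution that it was added after the data were seen, the largest differences were -0.45 ± 0.074 for Kif15 (adjusted p = 0.00144), -0.41 ± 0.057 for Lmnb1 (adjusted p = 0.000431) and -0.38 ± 0.095 for Kif11 (adjusted p = 0.0221). The smallest adjusted p was that of Cdc20, 0.0003. The 11 members that did not pass were Cdk1, Aurka, Cdca3, Mki67, Kif4, Ndc80, Cenpe, Ttk, Birc5, Kif23 and Anln. Calls by name were not equally firm when single libraries were left out. Ccnb2 and Ube2c stayed past the threshold in 2 of 12 such fits, Bub1 and Ect2 in 4, and Kif2c and Cenpa in 5. Plk1 did so in 7, Kif11 and Kif20a in 8 and Aurkb in 10. The other members that passed did so in all 12. All 36 members were lower under each of the 18 alternatives to this fit, and the median stayed between -0.27 and -0.23.

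Glutamate without the inhibitor went with slightly higher values. The mean was higher in Veh-Glut than in Veh-Veh for 34 of the 36 members, against 50% of all genes tested, and the median log2 difference of the members was 0.11 against 0.00. No member passed the threshold with limma, beside 0.133% of all genes that passed as higher. An unadjusted p under 0.05 was reached by 8 members, all higher, beside 766 of the 14266 genes tested that were higher at that level, and edgeR and DESeq2 on recovered reads also called 0. All 3 Veh-Glut libraries were above all 3 Veh-Veh libraries for 11 members (30.6%), against 7.58% of all genes, and none had the reverse. Top2a passed when Veh-Glut replicate 1 was left out, the lone call in any fit of this comparison.

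The largest positive differences were those of Kif15 (0.36 ± 0.1), Bub1b (0.27 ± 0.093) and Aspm (0.26 ± 0.083), with adjusted p of 0.284, 0.411 and 0.355. All 3 had groups that did not overlap, as the values given above show. Mki67 (-0.05 ± 0.085) and Kif4 (-0.02 ± 0.091) were the members with negative differences. The entry genes had differences of 0.15 for Ccna2, 0.20 for Ccnb1, 0.09 for Ccnb2, 0.01 for Cdk1, 0.11 for Plk1, 0.14 for Aurka and 0.08 for Cdca3, and 4 of the 7 had groups apart. Ccna2 had 4177, 4124 and 3984 in Veh-Veh and 4581, 4521 and 4489.8 in Veh-Glut. Spindle genes other than those named gave 0.21 for Kif11, 0.13 for Kif2c, 0.20 for Tpx2, 0.03 for Hmmr and 0.11 for Nusap1. Top2a gave 0.23 ± 0.079. Values at the kinetochore, besides Bub1b, were 0.10 for Cenpa, 0.13 for Ndc80, 0.11 for Nuf2, 0.01 for Cenpe, 0.07 for Cenpf, 0.10 for Bub1 and 0.11 for Ttk. The passenger complex gave 0.04 for Aurkb, 0.11 for Birc5 and 0.12 for Cdca8, and the anaphase genes 0.14 for Cdc20 and 0.05 for Ube2c. Cytokinesis genes and the lamina gave 0.13 for Prc1, 0.02 for Kif20a, 0.07 for Kif23, 0.16 for Anln, 0.24 for Ect2 and 0.04 for Lmnb1. The Veh-Veh and Veh-Glut groups also differed in the summed NSC markers given above, which were lower in Veh-Glut, and in those of 8 mature astrocyte genes, at 11829 to 12439.6 in Veh-Veh and 12665 to 12871 in Veh-Glut. The part of these in the result was not tested.

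With the inhibitor present no glutamate difference of a member passed. The mean was higher in TFBTBOA-Glut than in TFBTBOA-Veh for 30 of the 36 members, against 50.7% of all genes, with a median of 0.05 against 0.00. None (0 of 36) had an unadjusted p under 0.05 with limma, the lone tool run here, and 0% of all genes tested passed as higher. Groups were apart for 2 members (5.56%), Ccna2 and Cdc20, against 4.22% of all genes, a share near that of all genes. The largest positive differences were 0.14 ± 0.072 for Cdc20, 0.14 ± 0.12 for Kif15 and 0.14 ± 0.11 for Cenpe. The largest negative ones were -0.08 ± 0.095 for Nuf2, -0.05 ± 0.09 for Hmmr and -0.05 ± 0.075 for Top2a. The other entry genes gave 0.13 for Ccna2, 0.03 for Ccnb1, -0.00 for Ccnb2, 0.12 for Cdk1, 0.08 for Plk1, 0.05 for Aurka and 0.06 for Cdca3. Mki67 gave 0.04. Among spindle genes the values were -0.01 for Kif11, 0.10 for Kif4, 0.02 for Kif2c, 0.08 for Tpx2, 0.10 for Nusap1 and -0.02 for Aspm. At the kinetochore they were 0.08 for Cenpa, 0.02 for Ndc80, 0.03 for Cenpf, 0.04 for Bub1, 0.01 for Bub1b and 0.07 for Ttk. Among these genes only Ccna2 had groups that did not overlap. The remaining members gave 0.10 for Aurkb, 0.04 for Birc5, 0.04 for Cdca8, 0.13 for Ube2c, 0.05 for Prc1, 0.00 for Kif20a, 0.10 for Kif23, 0.05 for Anln, 0.11 for Ect2 and 0.05 for Lmnb1. Over 13 alternatives to this fit, single wells left out among them, between 22 and 33 members had a positive difference.

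**Figure D4:**
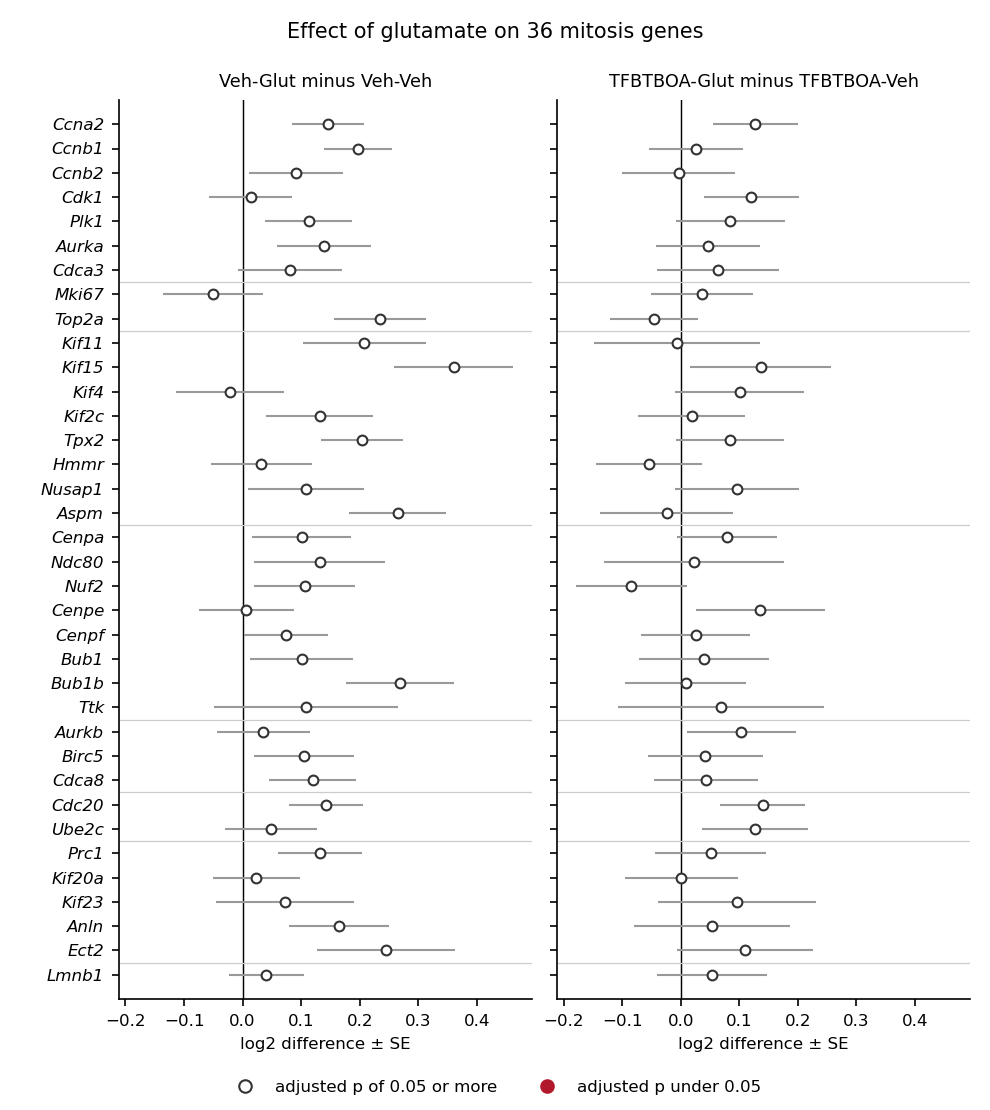
Points give the log2 difference of each member between groups with and without glutamate, in the absence (left) and presence (right) of TFB-TBOA, and bars give the standard error from limma (3 libraries per group). On the left 34 of 36 points lie right of 0 and on the right 30 of 36, and no member has an adjusted p under 0.05.

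Whether the 2 treatments depended on each other was tested as an interaction over all 12 libraries, the glutamate difference with the inhibitor minus that without it. No member passed, beside 0.014% of all genes tested, and 1 member, Top2a, had an unadjusted p under 0.05 (-0.28 ± 0.11, adjusted p = 0.668). The interaction was negative for 28 of the 36 members, with a median of -0.06 against 0.00 over all genes. The same 28 members had a larger inhibitor difference with glutamate than without it, which is the same contrast read the other way. The values furthest below 0 were -0.29 ± 0.14 for Aspm, -0.28 ± 0.11 for Top2a and -0.26 ± 0.14 for Bub1b. Those furthest above it were 0.13 ± 0.13 for Cenpe, 0.12 ± 0.14 for Kif4 and 0.11 ± 0.1 for Cdk1. The other entry genes gave -0.02 for Ccna2, -0.17 for Ccnb1, -0.09 for Ccnb2, -0.03 for Plk1, -0.09 for Aurka and -0.02 for Cdca3, and Mki67 gave 0.09. The other spindle genes gave -0.21 for Kif11, -0.22 for Kif15, -0.11 for Kif2c, -0.12 for Tpx2, -0.09 for Hmmr and -0.01 for Nusap1. The other kinetochore genes gave -0.02 for Cenpa, -0.11 for Ndc80, -0.19 for Nuf2, -0.05 for Cenpf, -0.06 for Bub1 and -0.04 for Ttk. The rest gave 0.07 for Aurkb, -0.06 for Birc5, -0.08 for Cdca8, -0.00 for Cdc20, 0.08 for Ube2c, -0.08 for Prc1, -0.02 for Kif20a, 0.02 for Kif23, -0.11 for Anln, -0.13 for Ect2 and 0.01 for Lmnb1. The median standard error of the interaction over the members was 0.12. The glutamate and inhibitor comparisons share groups of wells, so a high or low group enters more than a single comparison.

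Mitotic genes outside the list were also mostly lower with the inhibitor. A further 148 names of kinases, condensin, cohesin, kinetochore, spindle, anaphase-promoting complex, cytokinesis and nuclear envelope genes were taken, of which 143 were tested. With TFB-TBOA, 120 of them were lower without glutamate (median -0.14) and 130 with it (median -0.23). Of all genes tested, 50.5% and 48.7% were lower. Past the threshold without glutamate, 15 of the 14266 genes tested fell and 132 rose. Among the 143, 3 fell and 1 rose. Among those that fell, the condensin subunit Ncapd2 had a log2 difference of -0.32 ± 0.064 (adjusted p = 0.0399), and Fam64a had -0.35 ± 0.071 (adjusted p = 0.0399). In the averaged contrast 36 of the 143 fell and 1 rose, beside 485 and 588 of the 14266 genes tested. With glutamate 6 fell and 1 rose, beside 136 and 175 of all genes in the same limma fit. edgeR also called 6 lower and DESeq2 26, with no share of all genes given for these tools. Fam64a (-0.49 ± 0.081, adjusted p = 0.012) and Ncapd2 (-0.52 ± 0.1, adjusted p = 0.0276) passed again. The inner nuclear membrane proteins Lbr (-0.61 ± 0.11) and Tmpo (-0.48 ± 0.096) fell, with adjusted p of 0.0158 and 0.0276, as did the mitotic kinase Pbk (-0.40 ± 0.078, adjusted p = 0.0241) and Iqgap3 (-0.54 ± 0.12, adjusted p = 0.0391).

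The gene that rose in both was Lmna, which encodes lamins A and C. Its log2 difference was 0.46 ± 0.075 without glutamate (adjusted p = 0.0131) and 0.66 ± 0.096 with it (adjusted p = 0.00619), opposite to that of Lmnb1. With glutamate alone 108 of the 143 were higher (median 0.08), against 50% of all genes tested. None passed with limma or edgeR, while DESeq2 called 2, with no share of all genes given for it. An unadjusted p under 0.05 was reached by 19, beside 1356 of the 14266 genes tested. The 3 of smallest p were Iqgap3 (0.38 ± 0.1), Lbr (0.39 ± 0.1) and Tmpo (0.28 ± 0.074). With glutamate added beside TFB-TBOA 74 of the 143 were higher, near the share of all genes (50.7%). Spdl1 (0.44 ± 0.18) and Cdc25c (0.31 ± 0.13) had the smallest p. None of the 143 passed there, and these 2 had an unadjusted p under 0.05, beside 537 of all genes. In the interaction none passed, 9 had an unadjusted p under 0.05 beside 991 of all genes, and the 3 of smallest p were Iqgap3 (-0.57 ± 0.16), Cenpn (-0.51 ± 0.18) and Lbr (-0.46 ± 0.16).

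The 23 regulators of G2/M transcription include the factors known to read the promoter letters shown above. Their median inhibitor difference was -0.10 without and -0.12 with glutamate, and no regulator passed in either with limma. An unadjusted p under 0.05 was reached by 5 of the 23 in each. Beside them were 1633 of the 14266 genes tested without glutamate and 2613 with it. In the comparison with glutamate edgeR called 0 and DESeq2 called 2 as lower, with no share of all genes given for these tools. Without glutamate the smallest p belonged to the E2F partner Tfdp1 (-0.24 ± 0.069), Lin9 of the MuvB core (-0.40 ± 0.13) and Foxm1 (-0.26 ± 0.089). With glutamate it belonged to Tfdp1 (-0.29 ± 0.074), the cell cycle inhibitor Cdkn1a (0.28 ± 0.085) and the DNA-binding MuvB subunit Lin54 (-0.56 ± 0.17). Cdkn1a was thus higher and the other 2 lower. In the averaged contrast Tfdp1, Lin54 and Foxm1 passed, all lower, beside 3.4% of all genes tested that passed as lower. Their adjusted p was 0.00306, 0.0258 and 0.0355. With glutamate alone the 3 of smallest p were E2f7 (0.38 ± 0.11), Cdkn1a (-0.17 ± 0.074) and Nfyb (0.24 ± 0.12). With glutamate beside the inhibitor they were E2f1 (0.56 ± 0.25), Foxm1 (0.13 ± 0.095) and Nfyb (-0.17 ± 0.13), and in the interaction Nfyb (-0.41 ± 0.16), Cdkn1a (0.21 ± 0.1) and E2f1 (0.62 ± 0.37). None of these passed.

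DNA replication, the step before mitosis, was compared through 48 genes. With TFB-TBOA 45 were lower without glutamate (median -0.16) and 44 with it (median -0.22), against 50.5% and 48.7% of all genes. Past the threshold 1 and 2 of the 48 fell, beside 0.105% and 0.953% of all genes tested. With glutamate edgeR also called 2 lower and DESeq2 9, with no share of all genes given for these tools. The averaged contrast called 13 lower, beside 3.4% of all genes tested. The limma calls in single comparisons were Rrm2 of ribonucleotide reductase (-0.28 ± 0.055, adjusted p = 0.0365) without glutamate, and the polymerase δ subunits Pold2 (-0.47 ± 0.085, adjusted p = 0.0187) and Pold1 (-0.58 ± 0.12, adjusted p = 0.0297) with it. With glutamate alone 31 of the 48 were higher, with a median of 0.03, against 50% of all genes tested.

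**Figure D5:**
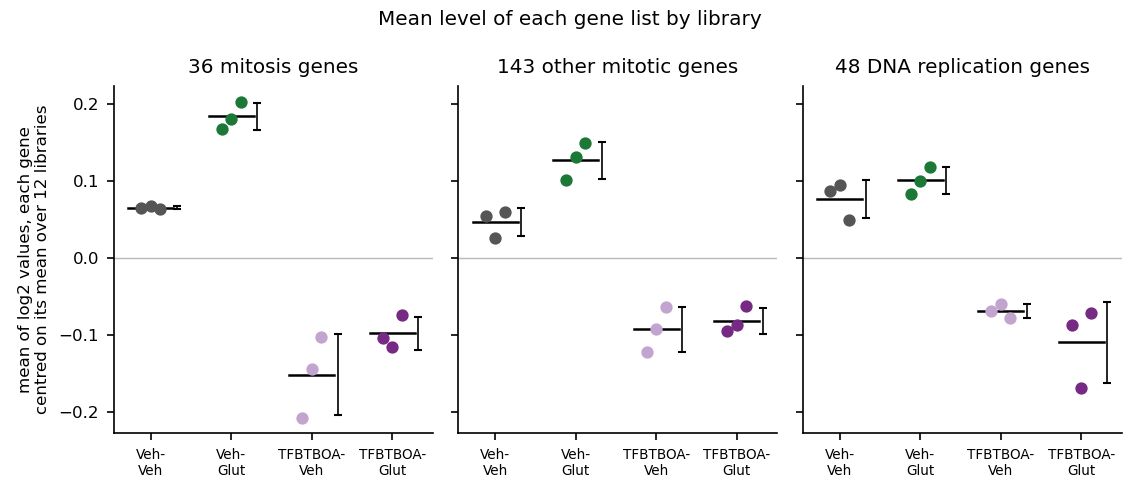
Points are libraries, lines group means and bars the SD (n = 3). The axis is the mean over the genes of a list of log2(normalized count + 1), each gene centred on its own mean over the 12 libraries. For the 36 members the Veh-Glut libraries lie at 0.17 to 0.20, Veh-Veh at 0.06 to 0.07, TFBTBOA-Glut at -0.12 to -0.07 and TFBTBOA-Veh at -0.21 to -0.10.

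Across the 12 libraries the members varied together, as the groups do. The Pearson correlation of their log2 values had a median of 0.67 over the 630 pairs of members and was positive for 98.1% of them, against a median of 0.02 over pairs of the 4799 genes at least as abundant as the least abundant member. After the group means were subtracted the median was 0.03 for the members and 0.01 for those genes. The co-variation thus lay between groups and was not seen between wells of a group. These values share libraries and scaling and are given as a description. The closest pairs were Tpx2 with Prc1 (0.95), Ccnb1 with Tpx2 (0.95) and Ccna2 with Kif15 (0.94). The least alike were Kif4 with Kif23 (-0.34) and Mki67 with Anln (-0.32). Measured against the mean of the other members, Ccnb1 (0.96), Tpx2 (0.94) and Cdc20 (0.91) followed the list most closely, and Kif23 (0.23), Anln (0.41) and Mki67 (0.46) least.

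Of 11440 genes outside the list with a mean of at least 50, the 10 whose pattern over the 12 libraries was most like the mean of the members were Nsun2 (r = 0.97), Eif4e (0.96), Noc2l (0.96), Smc2 (0.95), Orc5 (0.95), Vrk1 (0.95), Golph3 (0.95), Rcc1 (0.95), Thumpd1 (0.95) and Pbk (0.94). Smc2, a condensin subunit, Vrk1, a chromatin kinase, and Pbk were on the list of further mitotic genes. Orc5 belongs to the origin recognition complex and Rcc1 is the exchange factor of Ran on chromatin. Nsun2 is an RNA methyltransferase and Eif4e the cap-binding factor of translation. The inhibitor differences of Nsun2 were -0.18 without and -0.29 with glutamate, and those of Eif4e were -0.17 and -0.26, sizes like the medians of the members. These genes were picked for their likeness over the same 12 libraries, so the direction of their differences follows from the choice.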

How the data were processed

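Bulk RNA-seq was read from 12 libraries, 3 wells in each of 4 groups taken from the sample labels. The values are a signal that the authors deposited, gene counts scaled with DESeq: trimmed reads were aligned with HISAT2, counted per gene with featureCounts in stranded mode, although the kit keeps no strand, and divided by a size factor per library. The methods name the mouse build GRCm38p4 with GENCODE M14, whereas the submitters' processing notes name GRCh38 beside CASAVA 1.8.2 and HISAT2 2.0.6. Alignment and scaling are fixed in these values.

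The members and gene lists were chosen with earlier results of these data known. log2(normalized count + 1) was, for 14266 genes of mean 10 or more, fitted with limma 3.58.1 (trended variance, two-sided, R 4.3.3), each pair of groups on its own 6 libraries and the interaction on all 12, with Benjamini-Hochberg adjustment over all genes at 0.05. Fold changes are on that log2 scale. Contrasts averaged over the other treatment were added after the data were seen. Whole reads were recovered in 10 libraries, where 100% of values came within 0.05 of a whole number; edgeR 4.0.16 and DESeq2 1.42.0 were run on them where both groups allowed. TFBTBOA-Veh has 1 such library, so its comparisons have no count test. Shares of all genes past the threshold are those of the main limma fits. None is given for the count tests or the other settings, so their counts of calls have no share beside them. Exon lengths, identifiers and coordinates came from GENCODE M21 (GRCm38), matched by symbol for all 36 members, of which 14 overlap a gene on the opposite strand. Reads of such pairs cannot be separated. The fits were tested on simulated data.

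All members are named with their level per kb and differences. Library values are given for members past the threshold, the 3 largest differences in each direction per comparison and the 3 most abundant per kb. Other mitotic genes and regulators are named where past the threshold, and otherwise the 3 of smallest p; in the averaged contrast only regulators are. A gene of the other mitotic list is not reported here. Ttk, Ccna2, and the DNA replication genes were named after their values were seen. Alternatives were pseudocounts of 0.5 and 5, no filter, a minimum mean of 50, a replicate block, TMM scaling, a single fit of 12 libraries, both count tests and leaving out single libraries.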

Additional observations from a re-analysis of the deposited data

How the results depend on the processing

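In the inhibitor comparisons the direction was kept: at least 35 of the 36 members were lower in each of the 13 alternatives to the inhibitor comparison without glutamate and the 15 to that with glutamate. In the other comparisons it was less firm, with 32 to 34 members higher for glutamate alone, 22 to 33 higher for glutamate beside the inhibitor and 21 to 29 negative in the interaction. The number past the threshold did not hold. Without a filter on low values 0 members passed in either (2 and 6 as reported); the cause was not tested. In the comparison with glutamate a single fit of all 12 libraries called 14 members and DESeq2 15, and edgeR called 5. The share of all genes called under each alternative is not given, so a higher count of members is not read as stronger evidence. Whether the replicate numbers pair the wells was not settled. After group means were subtracted, same-numbered wells correlated by -0.04 to 0.08 (median 0.02). Wells of different number correlated by -0.11 to 0.08 (median -0.02). With the number as a replicate block 5 members passed without glutamate and 10 with it. The averaged inhibitor contrast then called 26, and the glutamate comparisons and the interaction 0. Leaving out each library gave 0 to 2 members without glutamate, 0 to 8 with it and 15 to 22 in the averaged contrast, and 0 to 1 for glutamate without the inhibitor. The medians then ran from -0.248 to -0.193, from -0.309 to -0.265 and, for the interaction, from -0.0994 (without TFBTBOA-Veh replicate 1) to -0.042, against -0.0624 as reported. With 3 wells per group the list of members past the threshold depends on single wells and settings.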
